A study of Mus musculus with 6 samples.

Results

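The osteoclast-like cells of MOC-2 tumors were taken as cells rich in transcripts of osteoclast resorption and fusion genes. Cells of the deposited matrix were kept when 500 or more genes were detected and mitochondrial transcripts made up less than 15% of their counts. An osteoclast-like cell held at least 5 UMIs (unique molecular identifiers, each standing for 1 captured transcript) of Ctsk and at least 3 of Acp5. It also held at least 2 UMIs in the sum of Atp6v0d2, Mmp9, Ocstamp, Dcstamp and Oscar. This rule found 201 of 13768 kept cells, from 14818 deposited ones, which is a share of 1.46% (exact 95% binomial interval 1.27 to 1.67%).

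MOC-2 is a mouse head and neck squamous cell carcinoma (HNSCC) line, and its cells were grown under the skin of male mice until tumors were palpable. The 3 vehicle tumors, described as DMSO, and the 3 treated tumors received an injection into the tumor, and all were taken 24 h later, sorted for live cells, tagged by tumor and pooled for droplet 3' sequencing. The labels name the treatment only as an experimental agent. Their protocol lists copper(II) diethyldithiocarbamate, 2-C1-IB-MECA, 2'3'-c-di-AM(PS)2, 5'ppp-dsRNA/Lyovec, R848, galunisertib, epcadostat, Nw-Hydroxy-nor-L-arginine, L-NMMA, clodronate and 4-1BB ligand, without saying which of them the treated tumors received. No mouse strain, age or genotype is given. Barcodes carry 1 of 6 suffixes, called barcode sets here, and no label ties a set to a tumor, so treated and vehicle tumors are not compared. All values below describe 1 pooled sample without replicates, and no test or p-value is given.

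Osteoclasts are the bone-resorbing cells of the monocyte-macrophage lineage. They arise when precursors meet macrophage colony-stimulating factor and RANKL, which act through the receptors Csf1r and RANK and switch on the transcription factor Nfatc1, and they become multinucleate by fusion. A resorbing osteoclast seals off bone, pumps protons through a vacuolar ATPase (V-ATPase) across its ruffled border, and secretes cathepsin K, tartrate-resistant acid phosphatase and Mmp9. Osteoclast-like giant cells are also known from some tumors outside bone.

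The 201 cells held 2237281 gene UMIs, from 1993 to 54034 per cell with a median of 9535. The median was 2643 in the 1189 C1q-positive macrophages used as the main comparator (at least 3 UMIs of C1qa, C1qb and C1qc together and at least 1 of Csf1r, Adgre1, Fcgr1 and Lyz2). It was 2456 in 342 C1q-negative monocytic cells (none of C1qa to C1qc, at least 3 Lyz2 UMIs and at least 1 of Csf1r, Ccr2, Ly6c2 and Fcgr1), and 8347 in all 13567 other cells. At 2000 UMIs per cell the median number of genes was 1041.5 in osteoclast-like cells and 1066 in macrophages, leaving out 1 and 390 shallower cells. Their median mitochondrial share was 4.63%, against 1.61% in macrophages and 2.56% in all other cells. Doublet scoring marked 21 kept cells, 0.153%, which is too few for the caller to have worked. Among osteoclast-like cells 1 was marked, and 16 (7.96%) reached a score of 0.25, against 6.56% of macrophages and 1.85% of all other cells. No barcode sequence was shared between sets. The tag with the most counts over a set was taken as its own, and it was the largest in all 201 cells. It made up at least 90% of the tag counts in 175 of them, and less in the cell of set 3.

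Levels below are counts summed over a cell group and scaled to the same total in every group (CPM), with exact 95% Poisson intervals that cover counting error only. A gene counted as tested, in the sense of measured deeply enough to compare, where both sums held at least 50 counts together, and was called higher or lower at a ratio of 2 or more in either direction, with sums under 3 counts set to 3. The genes of the choosing rule are described and support nothing. Ctsk, which encodes cathepsin K, the main collagen-degrading protease of osteoclasts, had a median of 98 UMIs per cell (5 to 390). Its level was 10273 CPM (10140.4 to 10406), against 16.7 CPM in macrophages and 16.0 CPM in all other cells, the highest level among the 7 genes of the rule. Ctsk lies on mouse chromosome 3 from 95499256 to 95509362 (mm10, GENCODE M21). Acp5, tartrate-resistant acid phosphatase, had a median of 46 UMIs (4 to 261) and stood at 5232 CPM, against 154 CPM in macrophages. Mmp9, gelatinase B, had a median of 64 UMIs and stood at 7019 CPM.

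The other 4 genes of the rule concern the proton pump, fusion and costimulation. Atp6v0d2, the osteoclast form of the V-ATPase d subunit, stood at 871 CPM and was seen in 196 of the 201 cells. Ocstamp and Dcstamp, membrane proteins needed for the fusion of precursors, stood at 275 and 192 CPM. Oscar, an immune-type receptor that costimulates osteoclast formation, stood at 97.9 CPM and was seen in 84 cells. All 5 genes of the sum were present in 80 cells, 4 of them in 56, 3 in 40, 2 in 19 and 1 in 6.

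**Figure D1:**
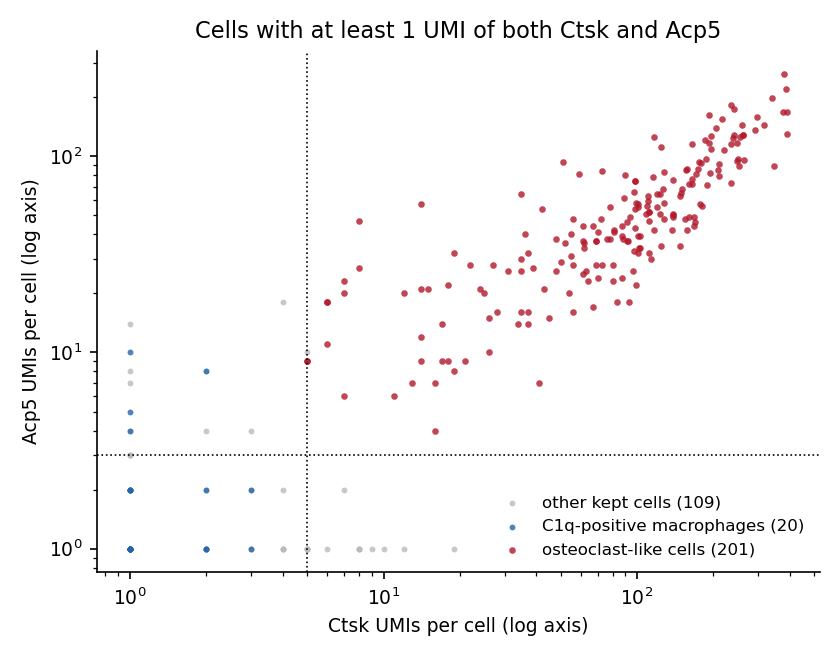
Ctsk and Acp5 UMIs per cell, both on log axes, for kept cells with at least 1 UMI of each, with dotted lines at the minimums of 5 and 3. The 201 osteoclast-like cells run up to 390 Ctsk and 261 Acp5 UMIs, and few other cells lie near the corner where the lines cross.

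Few cells stood near the limits. Of the cells that missed 1 condition only, 1 failed the sum, 4 failed Acp5 and 15 failed Ctsk. Another 8 cells met the 3 minimums and failed the filter on cells, with 12846 CPM of Ctsk. Inside the limits, the 10 members with 5 to 9 Ctsk UMIs held 944 CPM of Ctsk, 2729.9 CPM of Acp5 and 58.1 CPM of Ckb, and the 150 members with at least 50 held 11876, 5796 and 1624 CPM. The members with few Ctsk UMIs were thus lower in Ckb, the brain-type creatine kinase, which the rule did not use. A group of 115 cells passed the Ctsk minimum and neither other condition, and held 16202 CPM of Col1a1, the collagen gene of fibroblasts, against 557 CPM of Ctsk.

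Osteoclast-like cells were unevenly spread over the barcode sets. Sets 1 to 6 held 80, 23, 1, 73, 19 and 5 of them, which were 2.77, 1.04, 0.120, 1.93, 0.703 and 0.371% of the kept cells of each set. Sets 1 and 4 together held 153 of the 201 cells, or 76.1%. Per 100 C1q-positive macrophages of the same set there were 37.0, 19.8, 2.08, 16.7, 7.31 and 4.42, so sets 1 and 2 were highest on that scale and set 3 lowest on both. The exact intervals of sets 1 and 4, from 2.20 to 3.43% and from 1.52 to 2.42%, overlapped each other. That of set 4 just overlapped that of set 2, from 0.661 to 1.56%, and lay above those of sets 3, 5 and 6.

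Tnfsf11, the gene of RANKL, the ligand that drives osteoclast formation, was highest in sets 1 and 4, as was the share of kept cells. Per 100 macrophages, though, set 2 (19.8) stood above set 4 (16.7) in osteoclast-like cells. Tnfsf11 was measured in the 8166 cells with a Xist UMI and no UMI of 4 Y-linked genes. Osteoclast-like cells were left out of this group by definition. In sets 1 to 6 they held 118, 60.4, 15.6, 108, 46.4 and 63.2 CPM of Tnfsf11. Set 3, with 1 osteoclast-like cell, had the lowest level, while set 6 had 63.2 CPM and few such cells. Csf1, which encodes M-CSF, followed another order in the same Xist-positive, Y-negative cells. It stood at 43.9, 60.6, 29.0, 62.7, 68.3 and 51.5 CPM in sets 1 to 6, highest in set 5 and lowest in set 3, with set 1 next to lowest. In all other cells together Tnfsf11 stood at 75.9 CPM, the decoy receptor Tnfrsf11b (osteoprotegerin) at 29.4 CPM, and the Csf1r ligands Csf1 and Il34 at 56.5 and 23.7 CPM. Osteoclast-like cells themselves held 27.7 CPM of Tnfsf11, and 11.8 CPM in the 182 cells described below that carried little Xist and Col1a1. Whether RANKL bears on the number of osteoclast-like cells was not tested, and with 6 sets of unknown group no relation is computed.

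**Figure D2:**
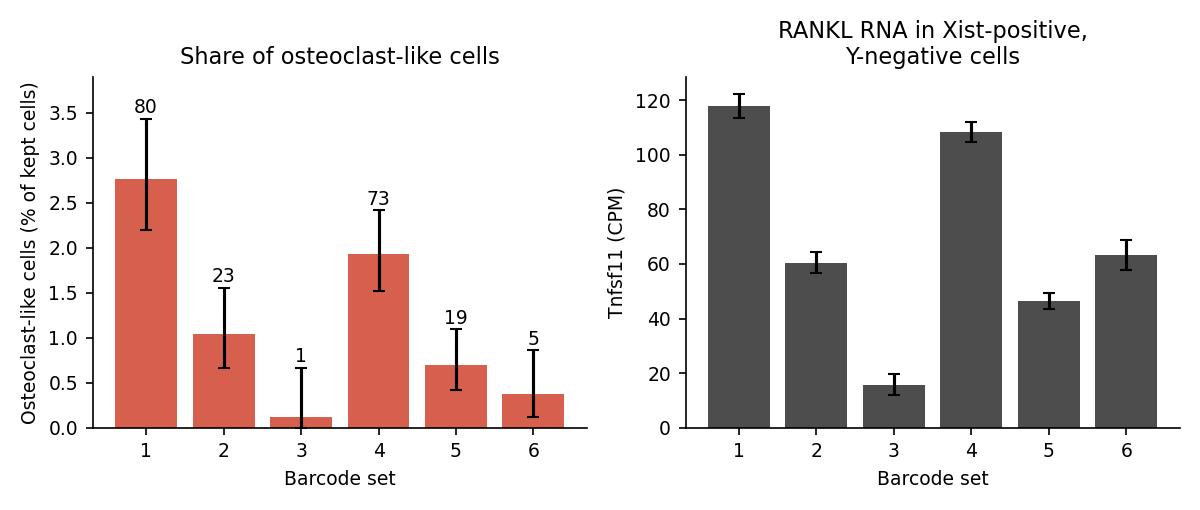
Left, osteoclast-like cells as a percentage of kept cells in each barcode set with exact 95% binomial intervals and the number of cells above each bar; right, Tnfsf11 in CPM with exact 95% Poisson intervals in Xist-positive, Y-negative cells of the same sets. Sets 1 and 4 were highest on both, at 2.77 and 1.93% and at 118 and 108 CPM.

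Against C1q-positive macrophages, 753 of 9160 tested genes were called higher in osteoclast-like cells (8.22%) and 1767 lower (19.3%), with a median ratio over all tested genes of 0.899. Sets 1, 2, 4 and 5 held at least 10 osteoclast-like cells each. Of the 753 genes, 723 had a ratio above 1 in all 4 of these sets, and 384 reached a ratio of 2 in each. Of the 1767 genes, 1207 had a ratio under 1 in all 4, and 433 were called lower in each. The sets are parts of the sums that gave these calls. The floor on low sums also applied within each set. It weighs most in sets 2 and 5, with 206146 and 222320 UMIs of osteoclast-like cells. A gene without counts in these cells can thus still have a ratio above 1, and a lower gene can be kept from a ratio under 1. How many of the genes owe their direction in a set to the floor was not tested. Counts of list members below are read beside these background percentages. Where barcode sets are listed by value, they are sets 1, 2, 4 and 5 in that order.

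**Figure D3:**
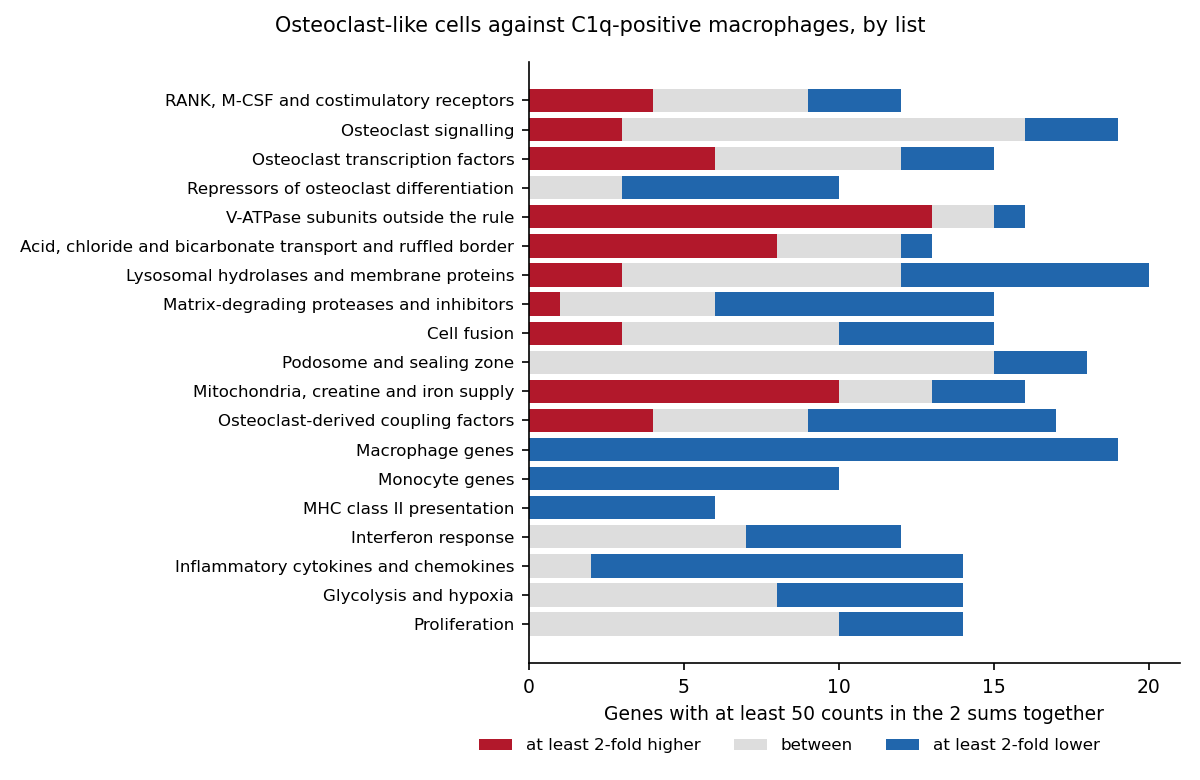
Number of genes of each list that were at least 2-fold higher, in between, or at least 2-fold lower in osteoclast-like cells than in C1q-positive macrophages. Called-higher genes make up most of the V-ATPase list (13 of 16), and called-lower genes all tested genes of the macrophage (19), monocyte (10) and MHC class II (6) lists.

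Among receptors of the RANK and M-CSF pathways, 4 of 12 tested genes were higher than in macrophages and 3 lower. Tnfrsf11a, which encodes RANK, stood at 129 CPM (115 to 145) against 44.5 CPM, 2.9-fold higher (2.43 to 3.47). It was 124, 160.1, 135 and 94.5 CPM in the 4 sets, and 51.4, 31.6, 48.5 and 35.3 CPM in their macrophages, so the sets did not overlap. Itgb3 and Itgav, the chains of the vitronectin receptor with which osteoclasts hold on to bone, were 5.41-fold and 2.69-fold higher, at 61.2 and 499.7 CPM. Mst1r, the receptor tyrosine kinase RON, was 162-fold higher (54.8 to 794), at 93.4 CPM against 3 counts in all macrophages, and 99.1-fold without set 4. Csf1r, the M-CSF receptor, stood at 212 CPM against 117, a ratio under 2 in a comparison where the macrophages were chosen partly by Csf1r. Tyrobp, the adaptor DAP12, was close in both, at 1209 and 840.3 CPM. Tnfrsf1a, a receptor of tumor necrosis factor, was 2.13-fold lower, a call lost against deeper macrophages (ratio 0.55) and without set 2 (0.511). Fcgr3, a low-affinity Fc receptor, was 46.7-fold lower (ratio 0.0214, and 0.0376 without set 1) and its partner chain Fcer1g 3.18-fold lower. Fcer1g was not called lower against the 184 macrophages with at least 6783 UMIs (ratio 0.691), where Tnfrsf11a was 6.76-fold higher. Of these deeper macrophages 67.4% held a Xist UMI, against 15.8% of all C1q-positive macrophages, and Xist stood at 897 against 478 CPM. Every comparison with them thus differs in Xist content as well as in depth, and the part of each was not tested. Against the deeper macrophages 7 of 12 receptor genes were higher and 1 lower, with a median ratio of 2.97.

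A pair of markers of the mature osteoclast was close to the detection limit. Calcr, the calcitonin receptor, had 6 counts in the 201 cells, or 2.68 CPM (0.984 to 5.84), and none in macrophages. Siglec15, a lectin of multinucleate osteoclasts, also had 6 counts against none. Thinned to 2000 UMIs, 2.5% of osteoclast-like cells had a Calcr UMI and 1.0% a Siglec15 UMI. Of 8 osteoclast genes listed outside the rule, Tnfrsf11a, Itgb3, Nfatc1, Car2, Tcirg1 and Clcn7 were thus called higher, and Calcr and Siglec15 held too few counts. The 8 were chosen with earlier results of these data known, so they are no independent check on the name.

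Of 19 tested genes of kinases and adaptors downstream of these receptors 3 were higher and 3 lower, with a median ratio of 0.794. Src, the kinase required for the ruffled border, was 3.32-fold higher (2.74 to 4.03) at 118 against 35.7 CPM. Tec, a kinase of the costimulatory pathway, was 3.0-fold higher and the adaptor Lcp2 (SLP-76) 2.09-fold higher. Traf6, the adaptor of RANK, stood at 47.8 against 32.8 CPM, and Syk, the kinase of the costimulatory receptors, at 82.7 against 96.8 CPM. The lower genes were Vav3, Blnk and Ikbkb, at ratios of 0.435, 0.428 and 0.498. Without set 1 the ratios of Blnk and Ikbkb were 0.519 and 0.542, which left 1 lower gene. None of the 3 was called lower against the deeper macrophages, where the ratios were 0.697, 0.809 and 0.735. There 7 of the 19 genes were higher and none lower, with a median ratio of 1.08. Lcp2 was not called higher when levels were averaged over cells (1.59-fold).

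The transcription factors of osteoclast formation were led by Nfatc1, its master regulator. Nfatc1 stood at 763, 975, 696 and 702 CPM in the 4 sets, against 143, 59.5, 52.8 and 40.6 CPM in macrophages. In every set the osteoclast-like cells were the higher. Over all sets it was 747 CPM (712 to 784) against 69.4 CPM, 10.8-fold higher (9.6 to 12.1). At 2000 UMIs, 76.0% of osteoclast-like cells held a UMI of it, against 10.6% of macrophages and 9.63% of Xist-positive, Y-negative cells, both far below the osteoclast-like share.

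In all, 6 of 15 tested factors were higher and 3 lower. Jdp2, an AP-1 family member that acts with Nfatc1, was 6.07-fold higher at 304 CPM. Mitf, a basic helix-loop-helix factor of osteoclasts and melanocytes, was 3.91-fold higher at 104 CPM. Ppargc1b, a coactivator of mitochondrial biogenesis in osteoclasts, was 29.5-fold higher (17.1 to 55.0), at 79.1 against 2.68 CPM and 51.7-fold without set 1, and its partner receptor Esrra was 2.54-fold higher. Prdm1, which represses genes that hold back osteoclast formation, was 2.37-fold higher. Fos, which is required for the lineage, was below the macrophage level at a ratio of 0.604, short of a call. Mef2c and Pou2f2 were lower, at 9.83 and 1.34 CPM (Pou2f2 from 3 counts), and so was Fosl1. The Fosl1 call did not hold when levels were averaged over cells (ratio 0.518) or without set 1 (0.567).

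The opposite direction held for genes known to restrain osteoclast formation: 7 of 10 were lower, none higher, with a median ratio of 0.353. Among them, Irf8, whose loss favours osteoclasts, was 5.32-fold lower, though at 139 CPM in set 5 it was above the 96.1 CPM of the macrophages of that set. Without set 5 its ratio was 0.0896. Nfkbiz was 5.54-fold lower, Id2 2.8-fold lower, Rbpj 2.86-fold lower, Tnfaip3 2.17-fold lower and Bcl6 2.96-fold lower.

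The V-ATPase, the proton pump of lysosomes and of the ruffled border, was higher in nearly all of its subunits. Outside the rule, 13 of 16 subunit genes were higher and 1 lower, with a median ratio of 3.99 beside 0.899 over all tested genes. The summed level of the 16 genes was 18345, 19734, 14344 and 12959 CPM in sets 1, 2, 4 and 5, against 5364, 3937, 4038 and 3857 CPM in their macrophages. Set 6, with 5 cells, held 17524 CPM and the cell of set 3 8579 CPM. Every set was above every macrophage value. Against all other cells 14 subunits were called higher, with a median ratio of 6.5. There 16.3% of all tested genes were called higher, which can include calls made by the floor of 3 counts.

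In the cytosolic V1 sector, which hydrolyses ATP, Atp6v1b2 was 7.33-fold higher (6.81 to 7.9) at 1321 CPM and Atp6v1a, the catalytic subunit, 5.41-fold higher (5.07 to 5.77) at 1371 CPM. Atp6v1d, Atp6v1e1, Atp6v1g1 and Atp6v1c1 followed at 5.31-fold, 4.32-fold, 4.08-fold and 3.94-fold. In the membrane V0 sector, which carries the protons, Atp6v0b was 4.48-fold, Atp6v0c 4.03-fold and Atp6v0e 3.9-fold higher.

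The subunits that come in several forms split. Tcirg1, the a3 form that osteoclasts need to resorb bone, was 4.32-fold higher (3.78 to 4.94) at 284 CPM. Atp6v0a1, the a1 form, was at 5 counts or 2.23 CPM against 27.0 CPM, 12.1-fold lower. The widely expressed d subunit Atp6v0d1 stood at 76.4 and 75.6 CPM, a ratio of 1.01 (0.84 to 1.21), while its osteoclast form Atp6v0d2 is one of the choosing genes. The accessory subunit Atp6ap1 was also level, at a ratio of 1.14. Without 19 cells rich in Col1a1 or Xist, 13 subunits were again called higher, with a median ratio of 4.4, and against the deeper macrophages 13, with 4.83.

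RefSeq promoter windows (GRCm38.p6, 250 bases before to 50 after the start) were matched for 12 of the 16 V-ATPase genes. CACGTG, the E-box that factors of the Mitf and Tfe family bind, was sought on both strands, which read alike. It lay in 4 of the 16 windows of these 12 genes, those of Atp6v0b, Atp6v0d1, Atp6v0e and Atp6v1a, and in 7.15% of all 32851 windows. The longer TCACGTGA, which contains it, lay in 3 of the 16 and in 0.974% of all windows. GGAAA, the core of NFAT sites, lay in 9 of the 16 windows and in 61.3% of all, and TGANTCA, the AP-1 motif, in 1 of the 16, each on either strand, and in 7.81% of all. The 5 windows matched for 3 genes of the choosing rule held neither CACGTG nor TGANTCA, and all 5 held GGAAA. Atp6v0d1, which holds the motif, was level between the groups, while Atp6v1b2, with the largest ratio of the list, is not among the 4. Windows are shown for 3 higher subunits with the motif, on the strand of the gene and with the motif in capitals: Atp6v1a (chr16:44139210-44139509, minus strand), Atp6v0b (chr4:117887280-117887579, minus strand) and Atp6v0e (chr17:26676146-26676445, plus strand).
Atp6v1a: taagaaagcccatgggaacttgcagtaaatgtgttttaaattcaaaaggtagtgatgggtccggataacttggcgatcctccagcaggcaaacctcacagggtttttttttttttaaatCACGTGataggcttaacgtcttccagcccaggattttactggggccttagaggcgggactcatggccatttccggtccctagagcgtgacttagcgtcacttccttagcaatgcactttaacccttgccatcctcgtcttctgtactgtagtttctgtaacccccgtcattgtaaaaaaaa
Atp6v0b: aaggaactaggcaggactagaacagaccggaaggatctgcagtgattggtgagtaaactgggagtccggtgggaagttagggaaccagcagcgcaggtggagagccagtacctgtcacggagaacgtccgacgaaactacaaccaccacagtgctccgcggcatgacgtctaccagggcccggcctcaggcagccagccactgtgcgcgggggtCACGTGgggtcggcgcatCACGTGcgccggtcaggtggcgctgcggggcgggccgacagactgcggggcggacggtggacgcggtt
Atp6v0e: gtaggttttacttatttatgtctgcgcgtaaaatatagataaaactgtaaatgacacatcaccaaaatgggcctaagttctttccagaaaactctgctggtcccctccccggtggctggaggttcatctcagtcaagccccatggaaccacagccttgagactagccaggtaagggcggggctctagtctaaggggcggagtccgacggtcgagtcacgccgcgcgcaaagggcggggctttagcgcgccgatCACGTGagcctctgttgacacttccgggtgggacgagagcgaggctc
A match describes letters only, and binding was not measured.

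The rest of the acid-secreting machinery was higher as well, in 8 of 13 tested genes with 1 lower. Car2, carbonic anhydrase II, which makes the protons, stood at 244, 306, 358 and 220.4 CPM in the 4 sets and at 6.31, 14.9, 3.24 and 1.76 CPM in macrophages. All 4 sets lay above all macrophage values, and over all sets it was 57.6-fold higher (38.9 to 88.8). At 2000 UMIs 33.5% of osteoclast-like cells and 1.13% of macrophages had a Car2 UMI. Slc4a2, the chloride-bicarbonate exchanger that removes the base left behind, was 5.3-fold higher. Clcn7 and Ostm1, the chloride transporter of the ruffled border and its partner, were 3.87-fold and 2.27-fold higher.

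Snx10, a sorting nexin whose loss causes osteopetrosis, stood at 860.4 against 94.0 CPM, 9.16-fold higher (8.29 to 10.1). Rab38, a small GTPase of lysosome-related organelles, was 29.4-fold higher (11.9 to 93.6) at 28.2 CPM. Rac2 was 3.05-fold and Plekhm1, a lysosomal adaptor of the ruffled border, 2.41-fold higher. Rab7, the late endosomal GTPase, was close in both groups, at 217 and 206 CPM. Syt7, a calcium sensor for lysosome exocytosis, was at 5 counts and 5.92-fold lower, a ratio of 0.169 that was 0.267 without set 1, with too few counts to be tested without set 4 or set 5.

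**Figure D4:**
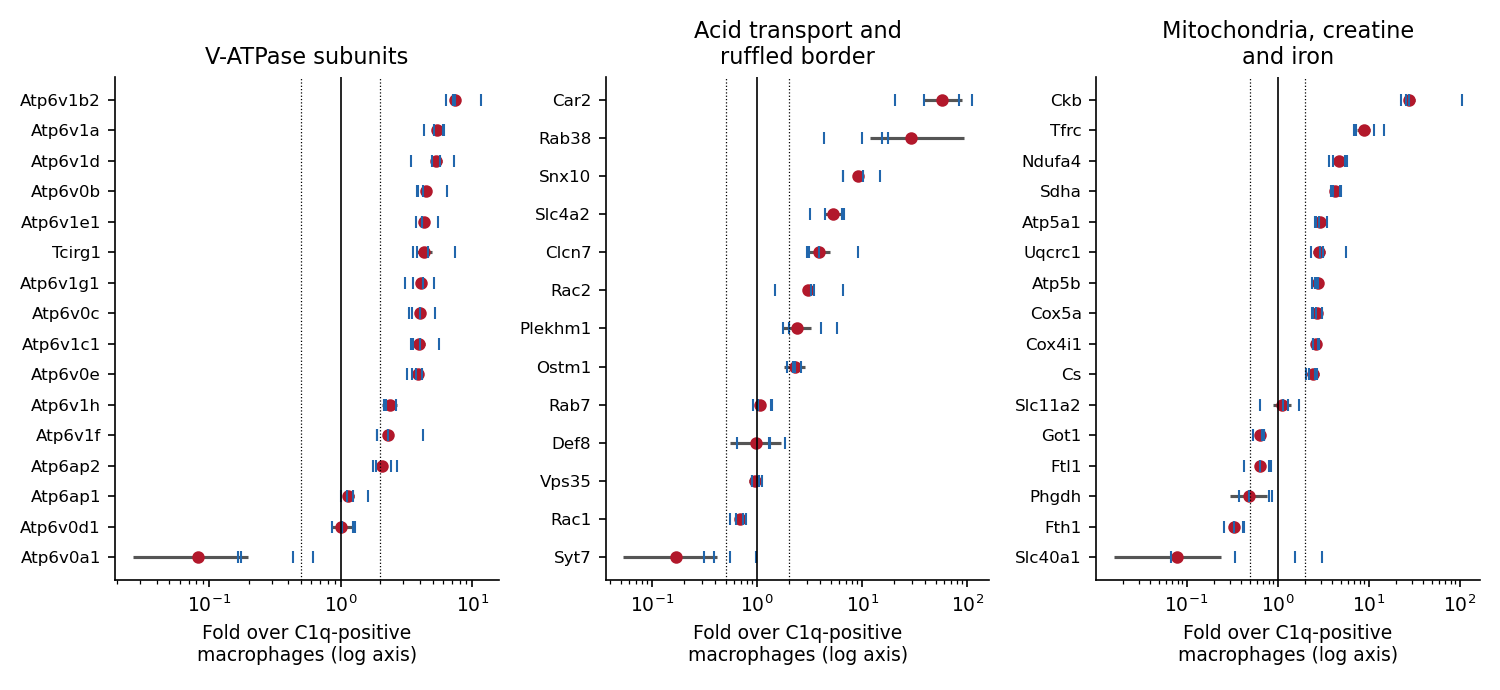
Ratio of osteoclast-like cells to C1q-positive macrophages on a log axis for genes with at least 50 counts; points are ratios of summed counts, bars their exact 95% intervals for counting error, ticks the ratios in barcode sets 1, 2, 4 and 5 (sums under 3 counts set to 3, which pulls the ticks of Atp6v0a1, Syt7 and Slc40a1 towards or past 1), and dotted lines mark ratios of 0.5 and 2. Of the V-ATPase genes Atp6v1b2 leads at 7.33 and Atp6v0a1 is last, and Car2 and Ckb exceed all others of their lists at 57.6 and 28.1.

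Genes of energy and iron supply were higher in 10 of 16 tested cases and lower in 3. Ckb, which regenerates ATP from phosphocreatine, stood at 1256, 1703, 1505 and 1071 CPM in the 4 sets, against 11.7, 61.4, 65.8 and 41.4 CPM in macrophages. Every set was far above its macrophages, and the whole was 28.1-fold higher (24.8 to 32.1). At 2000 UMIs 64.5% of osteoclast-like cells held a Ckb UMI, against 10.6% of macrophages and 5.02% of Xist-positive, Y-negative cells.

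All 8 tested nuclear genes of respiration were higher. They ranged from 2.45-fold for Cs, citrate synthase, to 4.78-fold for Ndufa4, a respiratory chain subunit, with Sdha of complex II at 4.26-fold and Cox4i1, Cox5a, Atp5a1, Atp5b and Uqcrc1 in between. Tfrc, the transferrin receptor that takes up iron, was 8.84-fold higher (7.48 to 10.5) at 299.9 CPM. Slc40a1, the iron exporter ferroportin, had 3 counts and a ratio of 0.0786 (0.0159 to 0.237), which was 0.253 without set 1. Fth1, the ferritin heavy chain that stores iron, stood at 7253 against 22005 CPM, 3.03-fold lower, and missed the call against the deeper macrophages at a ratio of 0.534. The share of mitochondrially encoded counts was also higher, as given above, and its part in these ratios was not tested.

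Genes of lysosomal enzymes and membrane proteins went both ways. Of 20 tested, 3 were higher and 8 lower, with a median ratio of 0.594 and a summed level of 9815 against 13557 CPM. Against the deeper macrophages 6 were higher and 8 lower, with a median ratio of 0.909, and the summed level of macrophages was 9038 CPM, below that of osteoclast-like cells. Among them, Hexa, which encodes a lysosomal hexosaminidase chain, was 2.36-fold higher. Cd68, a lysosomal membrane protein of macrophages and osteoclasts, was 2.76-fold higher at 552 CPM. Hexa was just short of a call when levels were averaged over cells (1.96-fold). The macrophage proteases Lgmn (legumain), Ctss and Ctsh were lower, by 9.13-fold, 6.82-fold and 5.52-fold. Lamp1 and Lamp2, abundant lysosomal membrane proteins, were 4.49-fold lower and 4.35-fold lower. Cathepsin B stood at 820.2 against 1632 CPM, just short of a call, and cathepsin L (Ctsl) was 2.28-fold lower.

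Matrix proteases other than those of the rule were mostly low. Of 15 tested genes 1 was higher and 9 lower. Mmp12 and Mmp13, a macrophage elastase and a collagenase, were 28.9-fold lower and 65.8-fold lower (ratio 0.0152, 0.00312 to 0.0447, from 3 counts). The 16 counts of Mmp12 gave a ratio of 0.0983 without set 1 and 0.0103 without set 4, and the ratio of Mmp13 was 0.0389 without set 1. Mmp14, a membrane-bound protease with a role in osteoclast migration, stood at 381 against 217 CPM, 1.76-fold higher without a call. Adam8 was 4.48-fold lower, and was no longer called against the deeper macrophages (ratio 0.50). The gene called higher was Mmp3, stromelysin, at 50.1 against 10.2 CPM. It came from sets 1 and 4 alone, at 43.9 and 89.8 CPM, and without the 19 cells rich in Col1a1 or Xist the ratio turned to 0.166. Timp3, a protease inhibitor, was 5.68-fold lower, a ratio of 0.176 that was 0.109 without set 1 and 0.268 without set 4.

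Fusion genes outside the rule gave 3 higher and 5 lower of 15. Myo1d and Myo10, unconventional myosins, were 23.6-fold higher (14.1 to 42.3) and 3.32-fold higher, and Mst1r is in this list too. Against the deeper macrophages Myo10 was short of a call at 1.88-fold. The tetraspanin Cd81 and the calcium pump Atp2b1 were 3.86-fold lower and 2.75-fold lower. Tspan13 and Clec4n were 9.6-fold lower and 13.3-fold lower, with Tspan13 at a ratio of 0.104, or 0.0579 without set 1, and Cd9, Cd44 and Cd47 lay between ratios of 0.536 and 0.834.

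Genes of podosomes, the actin dots that form the sealing ring, lay mostly between the limits. None of 18 tested genes was higher, 3 were lower and the median ratio was 0.93. The largest ratios were those of Actn1 (alpha-actinin), Tln1 (talin) and Wipf1, at 1.96, 1.56 and 1.43. Actn1 was called without set 1 or without set 4, at 2.04 and 2.07. It was also called without cells of a doublet score of at least 0.25 (2.35) and without osteoclast-like cells holding a Xist UMI (2.04). Averaged over cells its ratio was 3.52. In the other alternatives it was not called. Cbl, Tuba1a and Rhoc were lower. Against the deeper macrophages 2 of the 18 were higher and 2 lower, with a median ratio of 1.01. The Cbl ratio was 0.501 against the deeper macrophages, and that of Rhoc 0.695 when averaged over cells and 0.528 without set 2.

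Secreted and membrane factors by which osteoclasts signal to other cells were mixed, with 4 higher and 8 lower of 17. Ccl9, a chemokine abundant in osteoclasts, stood at 1429.9, 1344, 921 and 823 CPM in the 4 sets and at 380.4, 309, 346 and 172 CPM in macrophages, 3.58-fold higher (3.37 to 3.81) in all. Each set was above its macrophages. Efnb1, Sema4d and Pdgfb, which act on osteoblasts or vessels in bone, were 3.26-fold, 2.15-fold and 2.13-fold higher. Of these, Efnb1 was 1.94-fold against the deeper macrophages, and Sema4d and Pdgfb were 1.78 and 1.75-fold when averaged over cells, all short of a call. Pdgfb was also short of a call without set 5, at 1.88-fold. Spp1, osteopontin, which is abundant in bone osteoclasts, was 2.13-fold lower than in macrophages at 1265 CPM, and stood at 5689 CPM in all other cells. C3, Cxcl16 and Tgfb1 were 11.7-fold lower, 9.01-fold lower and 3.65-fold lower, and the ratio of C3 went from 0.0855 to 0.0536 without set 1.

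**Figure D5:**
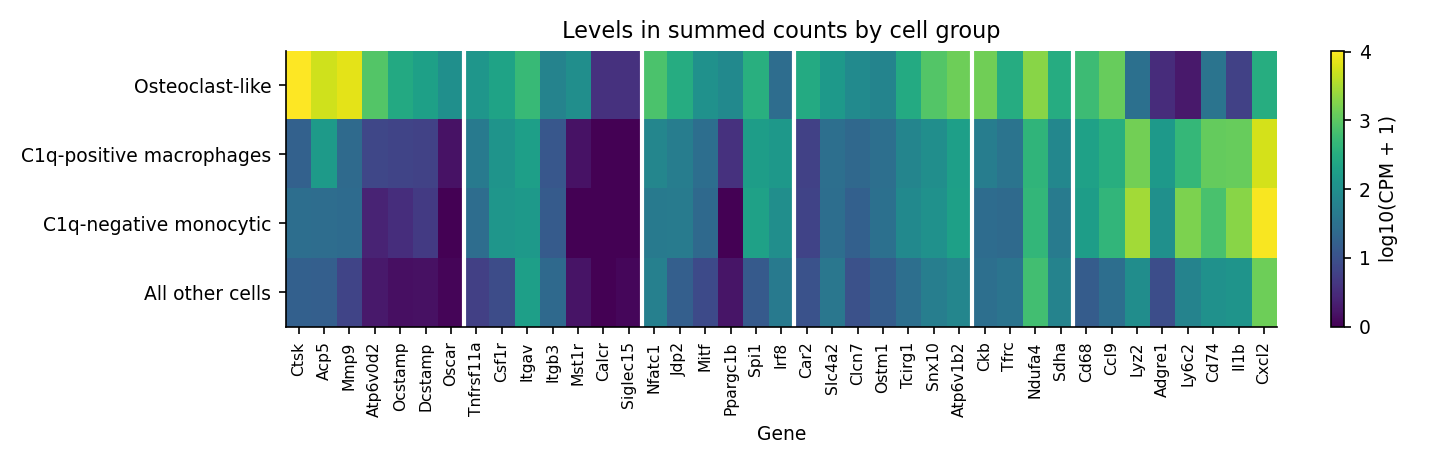
Level of selected genes as log10(CPM + 1) in summed counts of osteoclast-like cells, C1q-positive macrophages, C1q-negative monocytic cells and all other cells, grouped from left to right as genes of the choosing rule, receptors, transcription factors, acid secretion, energy and iron, and myeloid genes. Osteoclast-like cells are the brightest row for the rule, acid and energy genes and among the darkest for Lyz2, Adgre1, Ly6c2 and Il1b.

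Genes of macrophages and monocytes were almost all low in osteoclast-like cells. All 19 tested macrophage genes, all 10 monocyte genes and all 6 MHC class II genes were called lower, with median ratios of 0.0328, 0.0319 and 0.0262. C1qa, C1qb, C1qc, Adgre1, Fcgr1 and Lyz2 helped to choose the macrophages, so they are no finding. Of the rest, Mrc1, the mannose receptor, was 50.5-fold lower, Cd14 35.8-fold lower, Apoe 8.17-fold lower and the integrin Itgam 3.99-fold lower. Ms4a7 had the highest ratio of the list, at 168 against 438 CPM. Plac8 and Ccr2, the monocyte chemokine receptor, were 35.5-fold lower and 32.0-fold lower. Against the deeper macrophages 14 of 17 tested macrophage genes were called lower.

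Antigen presentation and inflammatory signals were low in the same cells. Cd74, the MHC class II invariant chain, stood at 40.8, 38.8, 20.5 and 9.0 CPM in the 4 sets and at 1614, 1223, 996 and 664 CPM in macrophages. H2-Aa was 85.3-fold lower. Of 14 inflammatory genes 12 were lower and none higher. Il1b stood at 11 counts or 4.92 CPM against 1182 CPM, 240.4-fold lower (ratio 0.00416, and 0.00273 without set 1), with a UMI in 0.50% of osteoclast-like cells and 54.9% of macrophages at 2000 UMIs. The share was 1.53% in Xist-positive, Y-negative cells, so that of osteoclast-like cells was no higher. Tnf was 32.0-fold lower (ratio 0.0313, and 0.072 without set 1), and the neutrophil chemokine Cxcl2, the most abundant of the list in macrophages, stood at 318 against 5701 CPM. The exceptions were Il6 and Nfkbia, at ratios of 0.574 and 0.663.

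Interferon-response genes varied with the barcode set. Over all cells, none of 12 tested genes was higher than in macrophages and 5 were lower, among them Cxcl10, Gbp2 and Irf7, and 3 without set 1. The ratio of Cxcl10 was 0.236, with 0.402 without set 1 and 0.0594 without set 5. Irf7 missed the call against the deeper macrophages (ratio 0.695), where 2 of the 12 genes were lower. The summed level in osteoclast-like cells of sets 1, 2, 4, 5 and 6 was 660.0, 747, 1813, 2411 and 5561 CPM. In the macrophages of these sets it was 1555, 1479, 2406, 3213 and 3176 CPM. In both kinds of cell sets 1 and 2 were the lowest of these and sets 4, 5 and 6 higher. Isg15, a ubiquitin-like protein induced by interferon, stood at 143, 189, 322, 359.8 and 1732 CPM in osteoclast-like cells of the same sets, the last from 5 cells. The sets cannot be tied to treatment, so these values say nothing of vehicle or treated tumors.

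Glycolytic and cell-cycle genes were not called higher. Of 14 glycolysis and hypoxia genes none was higher and 6 were lower, among them Slc2a1, the glucose transporter, at 4.18-fold lower, Ndrg1 at 3.22-fold lower (ratio 0.311, and 0.191 without set 4) and Ero1l at 2.78-fold lower. Aldoa had the largest ratio, 1.72. Of 14 proliferation genes none was higher and 4 were lower. They were Top2a, Hmgb2, Mcm3 and Rrm2. Several others lay just above a ratio of 0.5, and 7, 7 and 8 genes were called lower without sets 2, 3 and 6, and 12 against the deeper macrophages. The calls of Top2a and Hmgb2 were lost when levels were averaged over cells, with ratios of 0.534 and 0.52. A small group of 11 osteoclast-like cells held at least 10 UMIs of 6 mitotic genes. They carried 369.5 CPM of Top2a against 9.84 in the rest, and 4137 CPM of Ctsk against 10894. Their median depth was 19503 UMIs and 4 of the 11 reached a doublet score of 0.25. The cell of set 3 was one such cell, with 19 Ctsk, 8 Acp5, 7 Atp6v0d2, 8 Nfatc1, 8 Top2a and no Mmp9, Ckb or Car2 UMIs, and its doublet score reached 0.25.

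Male host cells carry the Y chromosome and rarely express Xist, the RNA of the inactive X. Among the 201 cells 128 (63.7%) had a UMI of the Y-linked genes Ddx3y, Eif2s3y, Kdm5d or Uty, 31 (15.4%) had a Xist UMI, 16 had both and 58 neither. The Y-linked sum was 119 CPM, against 135 in macrophages and 22.0 in all other cells, and Xist stood at 98.3 CPM, against 478 and 1017 CPM. The Y-linked level of osteoclast-like cells was thus near that of macrophages and above that of the other cells.

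Some osteoclast-like cells were rich in Col1a1 or Xist, and where these transcripts came from was not tested. A subset of 9 cells had at least 20 Col1a1 UMIs and carried 92.6% of all Col1a1 counts, at 10046 CPM against 68.4 CPM in the other 192. They still held 9465 CPM of Ctsk and 12567 CPM of V-ATPase transcripts. Another subset of 12 cells had at least 5 Xist UMIs and carried 86.8% of the Xist counts, with 4449 CPM of Ctsk and 8285 CPM of V-ATPase transcripts. Together these were 19 cells, 6 from set 1, 12 from set 4 and 1 from set 5, with a median of 22457 UMIs, and 12 of them reached a doublet score of 0.25. The 182 others stood at 11289 CPM of Ctsk, 18171 CPM of V-ATPase transcripts, 35.9 CPM of Col1a1 and 13.5 CPM of Xist. The limits of 20 and 5 UMIs were chosen after their values were seen.

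Markers of other cell types were otherwise low. Of 11 tested fibroblast markers none was called in either direction over all 201 cells (summed level 2989 against 3134 CPM in macrophages), and all 11 were lower without the 19 cells, at 210.3 CPM. Of the 1189 macrophages 125 held at least 5 Xist UMIs, and Xist stood at 478 CPM in the group. The macrophage levels in all ratios include these cells, and where their transcripts came from was not tested. Epithelial markers were lower in 4 of 5, T and NK cell markers in 2 of 4 (none without set 1 or set 2), neutrophil markers in 5 of 5 and B cell markers in 3 of 3 tested genes. Cd3d, Cd3e, Cd3g, Cd8a, Cd79a, Ms4a1, Ly6g and Xcr1 had no count in the 201 cells. So had the bone-forming markers Sp7, Bglap, Bglap2, Ibsp, Alpl and Dmp1, while Sox9 and Runx2 stood at 52.7 and 21.9 CPM, under the 170.1 and 45.6 CPM of macrophages. Mast cell, endothelial and dendritic markers gave no higher gene in the sums. Cpa3, a mast cell protease with 18 counts, had a ratio of 0.932, but 3.59 when averaged over cells, 12.4 without set 6 and 0.161 without set 4. Cdh5, an endothelial cadherin, went from 0.777 to 2.03 without set 5.

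Outside the lists, the genes with the largest ratios included several known from bone osteoclasts. Slc9b2, a sodium-proton antiporter that is induced during osteoclast formation, stood at 205 CPM (187 to 225) against 2.3 CPM, 89.2-fold higher (50.5 to 174). Scin, the actin-severing protein adseverin, was 255-fold higher (86.4 to 1242) at 147 CPM. Mt3, a metallothionein, was 245-fold higher (83.0 to 1193) at 141 CPM. Cd200, an immunoregulatory membrane protein, stood at 328 against 4.22 CPM, 77.7-fold higher (50.9 to 125). Arsb, the lysosomal arylsulfatase B, had the highest level of the 15 at 405 CPM and was 22.0-fold higher.

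Nyap2, an adaptor of phosphoinositide 3-kinase described in neurons, had 237 counts in osteoclast-like cells, none in macrophages and 1 in all 13567 other cells. It was at least 184-fold higher than in macrophages, against a floor of 3 counts over the group. It stood at 99.4, 126, 0, 114, 81.0 and 143 CPM in sets 1 to 6, and was present in all sets with more than 1 osteoclast-like cell. St8sia6, a sialyltransferase, and Coq8a, a factor of coenzyme Q synthesis, were 156-fold higher (52.7 to 764) and 93.2-fold higher (42.2 to 257). Cyp2s1, Serpind1, Bdh2, Akap6, Kbtbd11, Fam110b and Steap4 completed the 15, with ratios from 22.5 to 57.2. Ratios over so few macrophage counts moved with the sets: without set 1 Slc9b2 and Coq8a were at 139 and 166, and without set 4 Mt3, Nyap2, St8sia6, Cd200 and Steap4 were at 136, 114, 96.8, 119 and 49.2, all still called. The genes with the smallest ratios were myeloid ones. Wfdc17, a secreted protein of macrophages, was at 4 counts and 167-fold lower. Plbd1 was at 0 counts and at least 89.8-fold lower. Clec4e (the receptor Mincle), C5ar1 (the C5a receptor), Cybb (the NADPH oxidase subunit gp91phox), Alox5ap and Ccl5 were 74.6-fold lower, 65.9-fold lower, 61.4-fold lower, 60.5-fold lower and 70.7-fold lower. These ratios moved with the sets too. Without set 4, Ccl5 went from 0.0142 to 0.00419, Alox5ap from 0.0165 to 0.00729 and Wfdc17 from 0.00598 to 0.00908. The bound of Plbd1 went from 0.0111 to 0.0185 without set 1 and 0.0193 without set 4.

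Osteoclast-like cells of different barcode sets were alike in most genes. Among 1729 genes with at least 200 counts in them, the ratio of the highest to the lowest of sets 1, 2, 4 and 5 had a median of 1.42, and 204 (11.8%) reached 2. With sums under 3 counts set to 3, the widest ranges were those of Sparc, Tm4sf1, Col1a2 and Col1a1, at 87.6, 60.0, 58.4 and 47.7. The floor narrows the ranges of Tm4sf1 and Col1a2, which both stood at 4.85 CPM in set 2, so it also sets this order. Col1a1 stood at 1030.3, 24.3, 1158 and 45.0 CPM in sets 1, 2, 4 and 5, and the 9 cells rich in Col1a1 came from sets 1 and 4. Osteoclast genes varied less. Ctsk stood at 10900.3, 11502, 1895, 9707, 8649.7 and 10788 CPM in sets 1 to 6, with the single cell of set 3 the lowest. Snx10 was near 1112 CPM in sets 1 and 2 and at 573, 684 and 540.2 CPM in sets 4, 5 and 6.

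Ordered by depth, the 201 cells were cut into 3 groups of 67. Ctsk stood at 9687, 12239.8 and 9403 CPM in the shallow, middle and deep cells, and V-ATPase transcripts at 16538, 18837 and 15190.4 CPM. Nfatc1 went from 963 over 839.9 to 629 CPM and Tnfrsf11a from 170.1 over 139 to 111 CPM. Spp1 went from 502 over 534 to 1898 CPM and Xist from 13.1 over 13.9 to 171 CPM, both highest in the deep cells. The shallow cells had from 1993 to 7856 UMIs each.

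Against the 342 C1q-negative monocytic cells, 1047 of 6859 tested genes were higher (15.3%) and 1064 lower (15.5%), with a median ratio of 1.03. This comparison and that with macrophages share the osteoclast-like cells. Nfatc1 was 17.6-fold, Ckb 55.8-fold, Car2 53.0-fold and Tnfrsf11a 4.91-fold higher than in monocytic cells, and 13 of 15 tested V-ATPase genes were called higher. Against all other cells, 2353 of 14477 genes were higher (16.3%) and 3141 lower (21.7%), with a median ratio of 0.914. There several myeloid genes were higher in osteoclast-like cells. Cd68 was 40.4-fold, Csf1r 27.9-fold, Spi1 (the myeloid factor PU.1) 26.5-fold and Tyrobp 16.0-fold higher.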

How the data were processed

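The deposited file holds UMI counts, not normalized, of 32285 genes and 12 tags in 14818 cells, with all tumors together. It came from Cell Ranger 7.0.0 per the file headers. The submitters' processing notes give Cell Ranger 7.1 and mm10, and the series text Seurat 4.1.0. Filters made before deposit are not given in the sources used here. Counts were used as deposited, summed per cell group and scaled to CPM with numpy 2.4.6. Ratios used a floor of 3 counts, a minimum of 50 counts in both sums together and a call at 2-fold. Poisson and binomial intervals came from scipy 1.17.1. They do not cover PCR or droplet errors. Scrublet (scanpy 1.11.5, expected doublets 6%) scored each set, and no cell was removed. For shares of cells with a transcript, every cell was thinned to 2000 UMIs. Cell groups, lists and comparisons were chosen with earlier results of these data known. From each list the text takes up to 4 genes with the largest and 3 with the smallest ratio to macrophages, and outside the lists the 15 largest (at least 100 counts in osteoclast-like cells) and 10 smallest (at least 100 in macrophages) with 1 direction in all 4 sets with at least 10 such cells. Ribosomal and mitochondrial genes were left out there. Any other gene named was picked with its values known. The ratio and call steps were run on simulated Poisson sums drawn from a shared profile with planted changes. All 50 genes planted at a ratio of 4 and all 50 at 0.25 were called. Of 8954 unchanged genes 5 were called higher and 12 lower. These sums held no variation between cells or sets, so they check the computation only. Samples the labels put in groups could not be told apart in the matrix, so no groups were compared. Some genes of the lists are counted but not reported by name here.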

Additional observations from a re-analysis of the deposited data

How the results depend on the processing

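Over 16 alternatives that moved the cells, the comparator or the averaging, 11 to 13 of the V-ATPase genes were called higher, 10 of the genes of mitochondria, creatine and iron supply in each, and none of the repressors. Less steady were proliferation genes, 2 to 12 of them called lower, fibroblast markers, 0 to 11 lower, and receptors, 4 to 7 higher. Of 75 counts recomputed with all barcode sets present, 9 moved by over 1.5 times or past their interval. Without cells holding a Xist UMI, 170 osteoclast-like cells were left, 1.23% of kept cells. With a minimum of 20 counts, 3919 genes were higher than in all other cells. With a minimum of 200 counts these were 1152. Then 400 and 886 genes were higher and lower than in macrophages, and 429 and 439 were higher and lower than in monocytic cells. Fewer genes were tested at this minimum. Genes lower than in all other cells stayed at 3141 with minimums of 20, 50 and 200 counts. Calls higher than in all other cells can include genes raised by the floor on low sums, and its part was not tested. Averaging CPM over cells gave 1165 genes higher than in macrophages and 1703 higher than in monocytic cells, and the cause was not tested. Of the 753 genes, 716 were still called without the 19 cells rich in Col1a1 or Xist, an alternative chosen after seeing the data, and 547 against the 184 macrophages with at least 6783 UMIs, of which 67.4% held a Xist UMI. Leaving out each barcode set in turn left 121 to 200 osteoclast-like cells, 662 to 750 genes higher and 1576 to 1762 lower than in macrophages, 2167 to 2756 and 2689 to 3118 against all other cells, and 848 to 1042 and 875 to 1027 against monocytic cells. The minimums of 20 and 200 counts change only which genes are tested, so no ratio could move under them. With these included, 402 of 2952 ratios of 164 named genes moved past their interval. The most, 110 of 164, moved against the deeper macrophages. Of the ratios called in the full comparison, 2 crossed 1. These were Jchain and Mmp3; ratios that were not called, such as that of Cpa3, could cross 1 too and are not among the 2. Jchain had no count in osteoclast-like cells, so its 0.0736 is a bound, and the 1.15 against the deeper macrophages sets floor against floor. Mmp3 went from 4.93 to 0.166 without the 19 cells. No paired analysis was possible because no label ties a barcode set to a tumor, so vehicle and treated tumors cannot be paired. Osteoclast-like cells and macrophages of 1 set are given side by side, as values. A share of cells with no UMI among 200 thinned cells cannot show absence of the RNA. Genes such as Calcr, at 6 counts, are limited by depth.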
